A study of Homo sapiens with 2 samples.

Results

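The genes described are 10 regulators of mitogen-activated protein kinase (MAPK) signaling, measured by RNA-seq in Ramos cells and in their rituximab-resistant derivative, Ramos640. They were taken by name from the 37122 genes of the count table: 6 dual-specificity phosphatases (DUSP1, DUSP2, DUSP4, DUSP5, DUSP6 and DUSP10), 2 Sprouty genes (SPRY1 and SPRY2), the Sprouty-related gene SPRED1 and the scaffold gene CNKSR2. CNKSR2 was chosen by its read counts, since it is nearly absent from the Ramos640 library, and the others were proposed with results of this comparison known, so their differences between the cell lines are given as a description. Ramos is a Burkitt's lymphoma (BL) cell line of B-cell origin. Ramos640 was derived from it by selection with escalating rituximab, an antibody against CD20, in the presence of normal human serum (NHS) as the source of complement. Ramos640 was kept resistant with 640 mg/mL rituximab (per the labels, while the study's methods give μg/mL) and 20% NHS every 21 days. Its RNA therefore comes from 1 selected population under repeated treatment, and the time between the last treatment and RNA extraction is not given in the sources used here.

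For each cell line the authors combined the RNA of 3 passages into 1 library. No difference below has a replicate check, no test of the cell lines is possible, and all intervals are 95% intervals of counting error only. The libraries held 38030090 reads (Ramos) and 30871826 reads (Ramos640), and a count of 0 allows up to 3 reads, or 0.0789 and 0.0972 CPM (the count in 1000000 reads). Where a pair of read counts is given below, Ramos comes first. All 10 B cell markers examined were read in both libraries, with 1904 to 82890 reads in Ramos640. MS4A1, which encodes CD20, had 9654 reads in Ramos and 1904 in Ramos640. By the fold of 1.5 described below, 3 of the 10 B cell markers were lower in Ramos640 (MS4A1, PAX5 and MME). CD79B and CD74, 2 of the 10, were higher. Over all genes with at least 10 reads, 17.3% were lower and 14.6% higher. The summed T cell markers were at 0.447 and 1.65 CPM and the monocyte markers at 0.526 and 0.551. CD3D, CD2 and CD8A had no reads in either library, and CD3E had 1 and 31. The 6 epithelial and fibroblast markers summed to 30.5 CPM in Ramos and 12.0 in Ramos640, nearly all of it in COL1A1 (651 and 192 reads) and COL1A2 (466 and 162), while EPCAM had 0 and 1. The part of these transcripts in the results was not tested.

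MAPK cascades carry signals from surface receptors, such as the B-cell antigen receptor, through RAS, RAF and MEK to the kinase ERK, or through parallel kinases to p38 and JNK. Active ERK induces its own inhibitors. The dual-specificity phosphatases remove phosphate from the threonine and tyrosine that activate a MAPK, and the Sprouty and SPRED proteins act higher up, on RAS and RAF. Several of these genes are induced within minutes of stimulation and encode short-lived transcripts, so they are often read as a record of recent pathway activity.

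The feedback genes were weakly expressed in both cell lines, with the exception of DUSP2. Of the 10 genes, 6 had at least 10 reads over both libraries, the minimum used here, and 4 (DUSP4, DUSP5, SPRY2 and SPRED1) did not. By reads, not corrected for gene length, DUSP2 held 72.5% of the 1389 reads of all 10 genes in Ramos (Clopper-Pearson interval from 70.1% to 74.8%) and 93.6% of the 1318 reads in Ramos640 (92.2% to 94.9%). The other 9 genes together had 382 reads in Ramos and 84 in Ramos640, and CNKSR2 alone held 57.3% of the former. In such bulk RNA, fewer cells with a transcript and less of it in each cell cannot be told apart. Ratios below are of Ramos640 over Ramos after division by median-of-ratios size factors, and a fold of 1.5 in either direction was used to describe a gene as higher or lower (on the log2 scale with a pseudocount of 1, which understates the difference of genes with few reads). This is the fold part of the criterion in the study's methods, and their false discovery rate was not applied. Of the 6 genes with at least 10 reads, 2 were higher (DUSP2 and SPRY1), 3 were lower (DUSP1, DUSP10 and CNKSR2) and DUSP6 lay within this fold. Over all 18778 genes with at least 10 reads, 31.9% were past it, 14.6% higher and 17.3% lower. SPRY1 and CNKSR2 passed the minimum only through the library where they were read more, and all members were chosen with this comparison known, so nothing is read from their share. The counting interval of the ratio lay above 1 for the same 2 genes and below 1 for the same 3, where 29.6% of all genes lay above 1 and 31.6% below. With libraries of this depth the interval is thus narrow for many genes, and it carries no information on the spread between cultures.

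**Figure D1:**
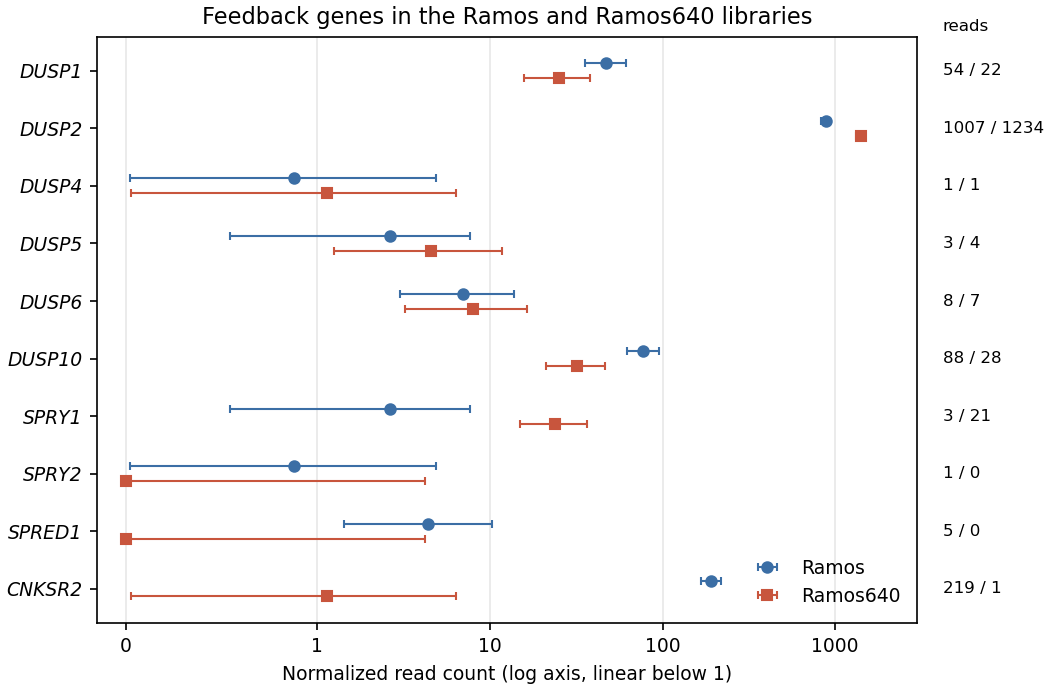
Read counts of the 10 genes divided by the size factor of the library, on an axis that is logarithmic above 1 and linear below it. Circles are Ramos, squares are Ramos640, bars are exact 95% Poisson intervals of the single library and the numbers at the right are raw reads (Ramos / Ramos640). DUSP2 stands far above the rest in both libraries, and CNKSR2 lies at 192 in Ramos against 1.14 in Ramos640.

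DUSP2 encodes a nuclear phosphatase, also called PAC-1, that was first known from activated lymphocytes and acts on ERK and p38. It lies on chromosome 2 of GRCh37 from 96808908 to 96811179, on the minus strand. Its 1007 reads in Ramos became 882 after normalization, and its 1234 in Ramos640 became 1408. The ratio was 1.60 (interval from 1.47 to 1.74), so the Ramos640 library was higher by more than counting error, though the interval reaches below the fold of 1.5. Fold changes went with GC content in the genes used to fit a running median, which are defined under the processing. The trend value subtracted on the log2 scale was -0.22 at the GC content of CNKSR2 (41.9% of its canonical transcript). It was 0.17 at that of DUSP2 (63.9%). The log2 fold change of DUSP2 was 0.67 as measured and 0.50 after this trend was removed, which is within the fold of 1.5 (a log2 value of 0.58).

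DUSP1, the founding member of the family and a nuclear phosphatase of p38, JNK and ERK, was lower in Ramos640. Its place is chromosome 5, 172195099 to 172198198 (minus strand), and it was read 54 times in Ramos and 22 times in Ramos640. This is 1.88-fold lower in Ramos640, with an interval from 1.13-fold to 3.25-fold. DUSP10, a phosphatase with a preference for p38 and JNK, is found at 221874766 to 221915431 of chromosome 1 (minus strand). The Ramos library held 88 DUSP10 reads and the Ramos640 library 28, which is 2.41-fold lower (1.56-fold to 3.84-fold). Of the 18778 genes examined, 1927 had a lower log2 fold change than DUSP1 and 1179 a lower one than DUSP10, so neither stands at the edge of the distribution.

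The phosphatases that are the usual readouts of ERK activity were barely present. DUSP6, the cytoplasmic phosphatase that acts on ERK alone and is its best known feedback gene, spans 89741012 to 89746278 of chromosome 12 (minus strand). Its 8 reads in Ramos and 7 in Ramos640 gave a ratio of 1.14 with an interval from 0.352 to 3.60. A change of up to about that size in either direction could not have been detected at this depth. DUSP5, a nuclear phosphatase of ERK at 112257665 to 112271291 of chromosome 10, had 3 and 4 reads (ratio 1.74, interval from 0.294 to 11.9). DUSP4, a nuclear phosphatase of ERK and JNK, had 1 read in each library, which is within the 3 reads that a count of 0 allows, and no fold is given.

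Among the Sprouty genes, whose products interfere with the step from receptors to RAS and RAF, SPRY1 was higher in Ramos640. SPRY1, at 124317950 to 124324915 of chromosome 4 (plus strand), was read 3 times in Ramos and 21 times in Ramos640. The ratio was 9.12, and with so few reads its interval ran from 2.72 to 47.7. There were 135 genes with a larger log2 fold change. Even in Ramos640 this was 0.680 CPM, a low level. SPRY2, at 80910111 to 80915261 of chromosome 13, had 1 read in Ramos and 0 in Ramos640, so no fold is given. SPRED1, which brings the RAS inhibitor neurofibromin to the membrane and lies at 38545037 to 38649450 of chromosome 15, was read 5 times in Ramos and never in Ramos640. The upper limit of its ratio (1.42) lies above 1, so a difference was not detectable at this depth.

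CNKSR2 encodes a scaffold, known mainly from neurons, that binds RAF and other proteins beneath the membrane. The gene spans 21390919 to 21672813 of chromosome X, on the plus strand. There were 219 CNKSR2 reads in Ramos and 1 in Ramos640, a ratio of 0.00595 (interval from 0.00015 to 0.0335). This is 168-fold lower in Ramos640, a value that rests on the 1 read there and has an interval from 29.9-fold to 6672-fold. Of the 18778 genes, 6 had a lower log2 fold change. CNKSR2 was chosen for its near absence from Ramos640, so nothing is read from this rank. KLHL34, the only other gene found to overlap it, is on the opposite strand and had 2 and 0 reads. Genes of the count table without a position in the annotation could not be checked for overlap. The genes whose log2 fold change came closest to that of CNKSR2 (-6.49), among those with at least 100 reads, were PLCXD3 (-6.55, 350 and 2 reads), TLL1 (-6.62, 111 and 0) and CD99 (-5.67, 454 and 6). Those genes were picked for their likeness to CNKSR2 in this value. The likeness rests on 2 libraries and on counts of 0 to 6 reads in Ramos640, and the value of TLL1 is set by the pseudocount.

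**Figure D2:**
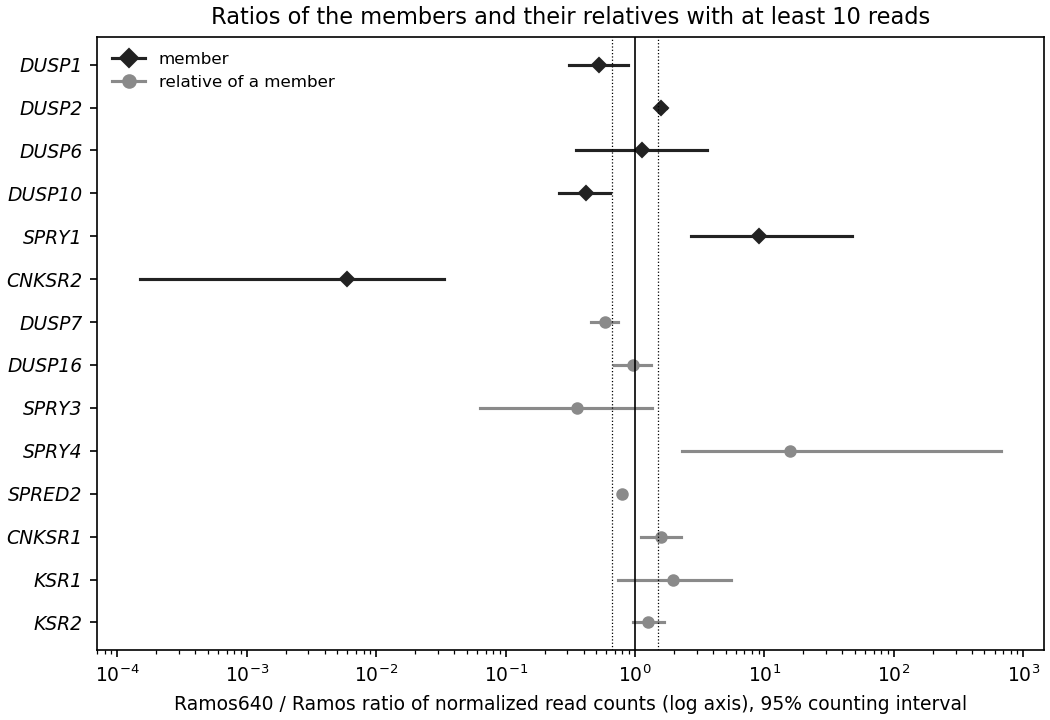
Ratio of normalized read counts, Ramos640 over Ramos, on a log axis for the members (diamonds) and their closest relatives (circles) with at least 10 reads. Lines are exact 95% counting intervals, the solid vertical line marks 1 and the dotted lines a fold of 1.5. CNKSR2 lies apart at 0.00595, SPRY1 and SPRY4 lie to the right of 1 with wide intervals, and the intervals of DUSP2 and SPRED2 are the narrowest.

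The promoter windows of CNKSR2, of DUSP1 and of DUSP2 are shown because these are the member with the largest difference, a lower member with a cyclic AMP response element (CRE) and the most abundant member. Sequences are from RefSeq (GRCh38.p14 table), run from 250 bases before to 50 bases after an annotated start, and each matched GRCh37 exactly at 1 place. The windows are chrX:21392286-21392585 (plus strand) for CNKSR2, chr5:172198149-172198448 (minus strand) for DUSP1 and chr2:96811130-96811429 (minus strand) for DUSP2. Capitals mark the CRE (TGACGTCA), its half-site (TGACG, which also lies within the full site), the AP-1 motif (TGANTCA) and the ETS core (CCGGAA), searched on both strands together with the CArG box, the serum response element.
CNKSR2: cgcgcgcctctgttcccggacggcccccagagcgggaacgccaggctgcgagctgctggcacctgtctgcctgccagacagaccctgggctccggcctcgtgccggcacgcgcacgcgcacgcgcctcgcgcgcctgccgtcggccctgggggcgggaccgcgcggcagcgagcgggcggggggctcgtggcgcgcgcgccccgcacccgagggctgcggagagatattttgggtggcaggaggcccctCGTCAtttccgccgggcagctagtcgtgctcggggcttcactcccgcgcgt
DUSP1: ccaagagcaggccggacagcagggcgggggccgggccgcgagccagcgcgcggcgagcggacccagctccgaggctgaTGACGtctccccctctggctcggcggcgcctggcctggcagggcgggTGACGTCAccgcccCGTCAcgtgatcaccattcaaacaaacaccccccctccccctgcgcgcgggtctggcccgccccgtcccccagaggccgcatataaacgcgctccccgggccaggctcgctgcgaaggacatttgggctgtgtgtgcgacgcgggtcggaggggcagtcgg
DUSP2: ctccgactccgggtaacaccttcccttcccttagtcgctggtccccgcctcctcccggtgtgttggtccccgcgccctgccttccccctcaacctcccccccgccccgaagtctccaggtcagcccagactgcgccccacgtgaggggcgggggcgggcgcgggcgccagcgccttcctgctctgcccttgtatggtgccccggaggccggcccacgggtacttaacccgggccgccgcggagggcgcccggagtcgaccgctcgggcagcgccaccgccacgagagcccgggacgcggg

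The DUSP1 window holds a full CRE at positions -125 to -118 from the start, and 1.85% of the 35116 RefSeq windows of this length hold one. Half-sites occurred in 4 of the 12 windows of the members, those of DUSP1, DUSP10, SPRY2 and CNKSR2, against 24.6% of all windows. The ETS core occurred in windows of SPRY1 and SPRY2 (17.2% of all), and none of the 12 windows of the 8 members in the table held the AP-1 motif (7.71% of all) or the CArG box (1.29%). The table has no window for DUSP4 and DUSP5. The CNKSR2 window has 45 CG dinucleotides and the DUSP2 window 35, where the median window has 14. A match of letters is a description of the window, and no binding or methylation was measured.

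Levels of different genes were compared as RPKM, the CPM over the kilobases of merged exons. In Ramos, DUSP2 led with 13.7 RPKM (interval from 12.9 to 14.6), followed by DUSP10 at 0.819 (0.656 to 1.01) and DUSP1 at 0.705 (0.530 to 0.920), whose intervals overlap. CNKSR2 was at 0.181, DUSP6 at 0.0545, and the other 5 members at 0.0311 or less, with overlapping intervals. In Ramos640 the order was DUSP2 at 20.7 RPKM, DUSP1 at 0.354 and DUSP10 at 0.321 (overlapping), SPRY1 at 0.172 (0.106 to 0.262), and DUSP6 and DUSP5 at 0.0588 and 0.0511 (overlapping). The interval of SPRY1 overlaps those of DUSP1, DUSP10, DUSP6 and DUSP5, and of these 6 genes only DUSP2 stood apart from the rest. CNKSR2 was at 0.00102, with an interval that overlaps that of DUSP4. The annotation gives CNKSR2 31865 bases of merged exons, while its canonical transcript has 5753 bases. By the latter length CNKSR2 was at 1.00 RPKM in Ramos, second after DUSP2 and next to DUSP10 (0.894).

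**Figure D3:**
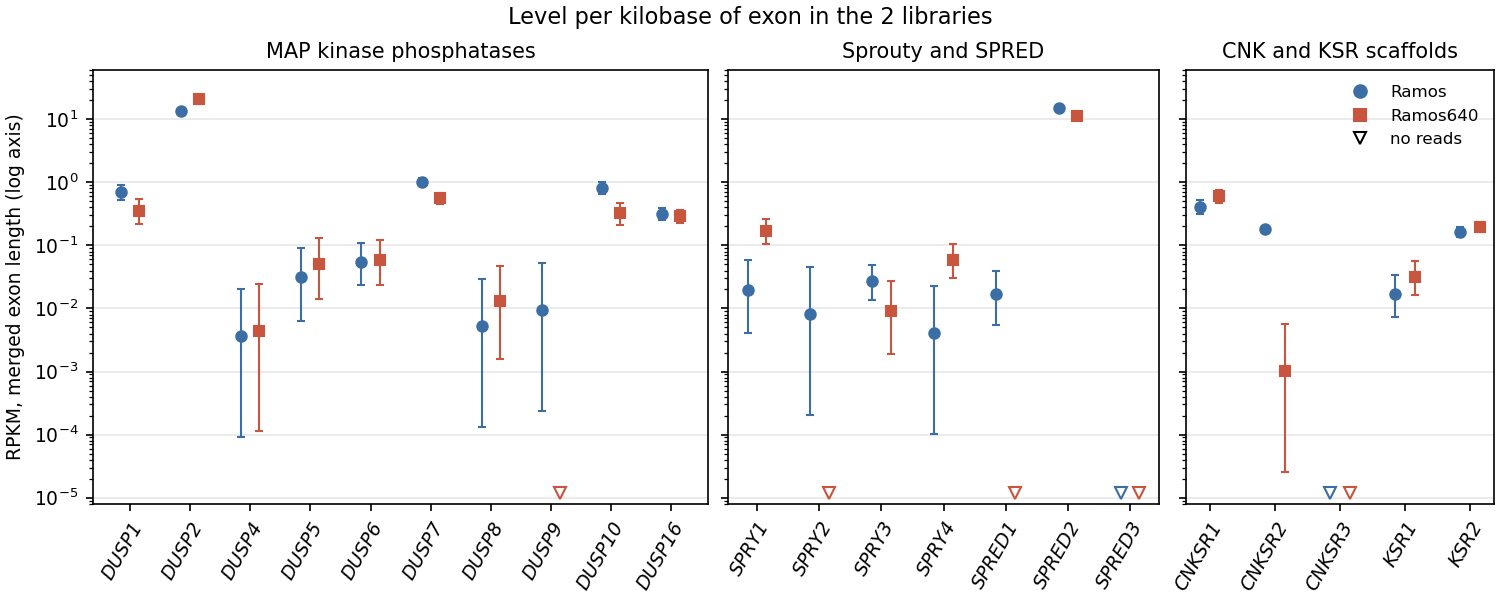
Level in RPKM on a log axis of the classical MAPK phosphatases (left), the Sprouty and SPRED genes (middle) and the CNK and KSR scaffolds (right). Circles are Ramos, squares are Ramos640, bars are exact 95% Poisson intervals and open triangles at the bottom mark genes with no reads. In both libraries 1 gene leads each of the first 2 families, DUSP2 at 13.7 and 20.7 and SPRED2 at 15.1 and 11.4.

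Among the classical MAPK phosphatases, and among the Sprouty and SPRED genes, 1 gene had most of the reads. Of the 4 classical MAPK phosphatases that are not members, DUSP7, a cytoplasmic phosphatase of ERK, had 221 and 99 reads. It was 1.71-fold lower (1.35-fold to 2.20-fold). DUSP16, a phosphatase of JNK and p38, had 87 and 64 reads (ratio 0.958, interval from 0.683 to 1.34), DUSP8 had 1 and 2, and DUSP9 had 1 and 0. DUSP2 held 68.5% of the reads of all 10 classical phosphatases in Ramos and 84.5% in Ramos640.

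SPRED2, a further inhibitor of the RAS to ERK cascade, held 99.3% of the reads of the 7 Sprouty and SPRED genes in Ramos and 98.2% in Ramos640. It had 3170 and 1935 reads, a ratio of 0.795 (0.751 to 0.841), within the fold of 1.5. The other relatives were rare. SPRY4 had 1 and 12 reads, a ratio of 15.6 with an interval from 2.31 to 668. SPRY3 had 11 and 3 reads (2.82-fold lower, 0.744-fold to 15.7-fold) and SPRED3 had none. SPRY4, like SPRY1, passed the minimum of 10 reads only through Ramos640, the library where it was read more.

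Of the 7 other scaffolds of the cascade, 6 had at least 10 reads. Of these, 2 were higher and none lower, against 14.6% and 17.3% of all genes. CNKSR1 had 61 and 74 reads (ratio 1.58, 1.11 to 2.25), its log2 fold change of 0.65 being 0.43 without the GC trend, and CNKSR3 had no reads. KSR2, a scaffold that binds RAF, MEK and ERK, had 114 and 111 reads (ratio 1.27, 0.968 to 1.66), and KSR1 had 8 and 12 (1.95, 0.734 to 5.51). SHOC2, LAMTOR3 and IQGAP1 had ratios whose log2 values lay between -0.32 and -0.28.

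**Figure D4:**
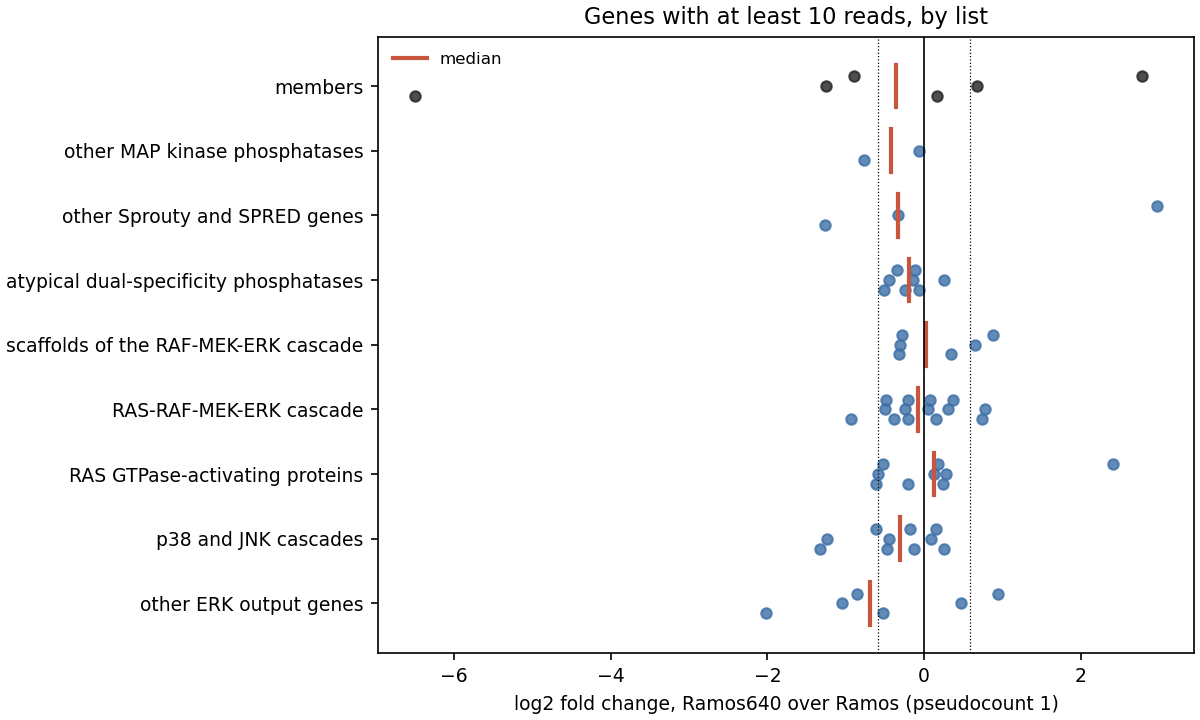
Log2 fold change of Ramos640 over Ramos (pseudocount of 1) of each gene with at least 10 reads, 1 point per gene, by list. Red bars are medians and dotted lines a fold of 1.5 in either direction. The members spread from -6.49 to 2.78, while the 8 atypical phosphatases lie between -0.51 and 0.26.

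The 14 atypical dual-specificity phosphatases, which lack the MAPK-binding domain of the classical members, gave 8 genes with at least 10 reads. None of the 8 was past the fold of 1.5, against 31.9% of all genes. DUSP22 had the highest level in Ramos (21.0 RPKM), with 4544 reads in Ramos and 2741 in Ramos640 (ratio 0.786, 0.749 to 0.824). The median log2 fold change of the 6 members was -0.36, that of the 8 atypical phosphatases -0.19 and that of all 18778 genes -0.015. The median of the members turns to 0.17 without CNKSR2.

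The kinases on which these regulators act, and the activators and inhibitors of RAS, are listed against shares of 14.6% higher and 17.3% lower over all genes. All 14 genes of the RAS-RAF-MEK-ERK cascade had at least 10 reads and 11 lay within the fold of 1.5, among them MAP2K1, which encodes MEK1 (4513 and 3018 reads, log2 fold change -0.20). HRAS (1155 and 1485 reads, 0.74) and the RAF kinase ARAF (1507 and 1977, 0.77) were higher, both at 0.58 and just within the fold without the GC trend. The RAS activator SOS2 was 1.92-fold lower (1134 and 454 reads). Of 10 RAS GTPase-activating proteins, which switch RAS off, 9 had at least 10 reads, and among these DAB2IP was higher (79 and 327 reads, ratio 5.39, interval from 4.20 to 6.98). NF1, which encodes neurofibromin (1747 and 880 reads, 1.52-fold lower), and RASA1 (1215 and 618, 1.51-fold lower) were lower, but within the fold without the GC trend. Of 11 genes of the p38 and JNK cascades, 10 had at least 10 reads and the JNK gene MAPK10 had 1 and 0. None of the 10 was higher and 3 were lower, namely the p38 kinases MAPK11 (162 and 49 reads, 2.54-fold lower) and MAPK13 (960 and 311, 2.37-fold lower) and the JNK gene MAPK8 (455 and 229, 1.53-fold lower). Of the other p38 genes, MAPK14 had 2909 and 1978 reads (log2 fold change -0.18) and MAPK12 had 1253 and 1024 (0.09). MAPK8 was within the fold without the GC trend.

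Other genes that ERK is known to induce were also weakly read. The 10 examined, none of them a member, had 137 reads together in Ramos and 61 in Ramos640. Of the 6 with at least 10 reads, 3 were lower and 1 was higher, against 17.3% and 14.6% of all genes. The counting interval lay below 1 for 2 of the 6 and above 1 for none, against 31.6% and 29.6% of all genes. ETV4 passed the minimum only through Ramos, the library where it was read more, so nothing is read from these shares. IER3, a stress-induced early gene, had 66 and 24 reads (2.11-fold lower, 1.31-fold to 3.52-fold), and the ETS factor gene ETV4 had 14 and 2 (5.38-fold lower, 1.23-fold to 48.7-fold). FOSL1 had 8 and 3 reads and PHLDA1 11 and 17, each with an interval that includes no difference. EGR1 had 10 and 11 reads and CCND1 8 and 4. FOS had 8 and 0 reads, which is at least 2.05-fold lower against the floor of 3 reads and 1.31-fold lower at the limit of the interval that also counts the error in Ramos. EPHA2 had 7 and 0 reads, at least 1.79-fold lower against the floor and 1.11-fold at that limit, and ETV5 had 5 and 0.

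The genes on either side of the members were also examined. The 2 nearest protein-coding genes with at least 10 reads on each side of every member make 40 genes. Of these, 34 lay within the fold of 1.5, 1 was higher and 5 were lower (2.5% and 12.5%, against 14.6% and 17.3% of all genes). The shares over all genes are not limited to protein-coding genes, and with a minimum of 100 reads they were 9.94% and 12.6%. The sets thus differ, and nothing is read from these shares. Of the 40, 12 lie more than 1 Mb from their member, the farthest at 14.3 Mb. On chromosome X, RPS6KA3, which encodes an ERK-activated kinase and is named here after its value was seen, lies 1.11 Mb before CNKSR2 and was lower (1497 and 637 reads, log2 fold change -0.85). The next genes on the other side, MBTPS2 (268 and 177 reads, -0.22) and YY2 (60 and 57, 0.30), lie 0.185 and 0.201 Mb away and were within the fold. Beside SPRED1 on chromosome 15, RASGRP1, a RAS activator of lymphocytes, was 8.30-fold lower (1275 and 118 reads, interval from 6.87-fold to 10.1-fold), while FAM98B, which lies between them, was within the fold (1545 and 927, -0.36). SH3PXD2B, near DUSP1, had 11 and 0 reads, at least 2.82-fold lower against the floor of 3 reads and 1.93-fold at the limit of the interval.

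**Figure D5:**
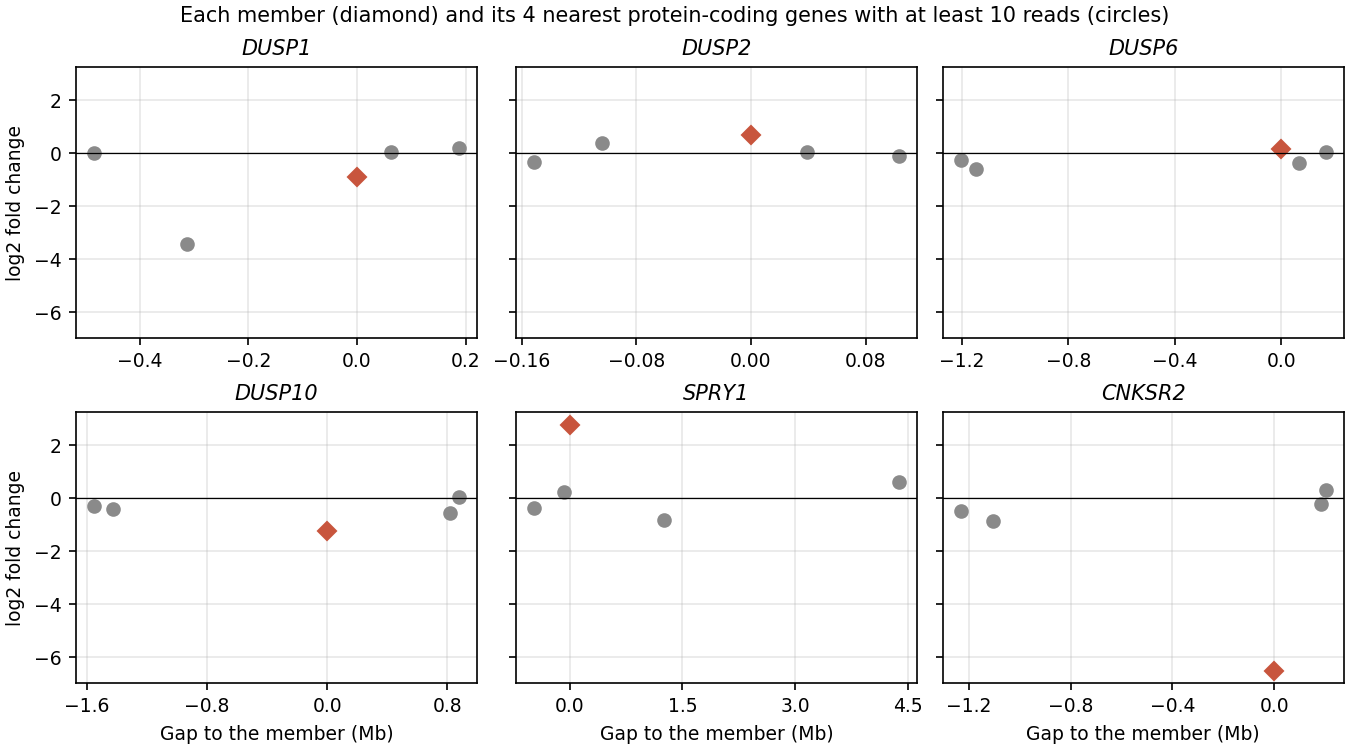
Log2 fold change (pseudocount of 1) of the 6 members with at least 10 reads (diamonds) and of the 4 nearest protein-coding genes with at least 10 reads around each (circles), against the gap between the genes in Mb, negative toward lower coordinates. CNKSR2 lies at -6.49 while its 4 neighbours lie between -0.85 and 0.30, and the low circle beside DUSP1 is SH3PXD2B, which had no reads in Ramos640.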

How the data were processed

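RNA-seq of Ramos and Ramos640 cells was analysed from the deposited gene counts, 1 library per cell line. Per the study's methods, the authors trimmed adaptors from the reads and aligned these to GRCh37 with MapSplice (version 2.1.6). The deposited values are whole numbers with different totals, and were taken as read counts without normalization. The counting program, strand use and handling of multi-mapped reads are not given in the sources used here, so antisense and overlapping genes cannot be separated. Of the 37122 rows, 28 carry a number in place of a name and were kept.

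Normalized reads are counts over median-of-ratios size factors (1.14 and 0.876). Ratios carry exact Clopper-Pearson intervals of the share of reads, and log2 fold changes use a pseudocount of 1. With 1 library a side no dispersion can be estimated, so no count test was run. TMM factors came from edgeR (version 4.0.16), and the other steps used Python (version 3.11.15) and scipy (version 1.17.1). Alternatives were TMM, total counts, pseudocounts of 0.1 and 10, minimums of 1 and 100 reads, a fold of 2 and removal of the GC trend (a running median of 501 genes, protein-coding and with 100 reads or more). Coordinates, lengths and GC content came from GENCODE (v44lift37), which covered 84.2% of the genes examined. RPKM and CPM used total counts.

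The members, lists and alternatives were chosen with earlier results of these data known. Genes named are the members, their relatives, list genes past the fold, close neighbours, the 3 genes nearest to CNKSR2 in log2 fold change and markers. Other kinases were named after their values were seen. The size factors, ratios, intervals and log2 fold changes were checked on simulated counts that held counting error only. Changes were set there in genes with at least 100 reads. The GC trend, RPKM, neighbours and motifs were not part of this check.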

Additional observations from a re-analysis of the deposited data

How the results depend on the processing

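No paired analysis was possible because each cell line has 1 library. Each of the 6 members with at least 10 reads kept its direction under all 5 alternatives of scaling, pseudocount and GC trend. SPRY1 ranged from 1.43 to 3.14 on the log2 scale and CNKSR2 from -7.27 to -4.18. The cause was not tested for the changes that follow, other than those made by a minimum on reads. Of the 2 higher members, DUSP2 alone was left with a minimum of 100 reads, and SPRY1 alone with a fold of 2 or the GC trend removed. There were 3 with a minimum of 1 read, which adds DUSP5 (3 and 4 reads). Over all genes, 9.94% were higher with a minimum of 100 reads and 6.64% with a fold of 2. The share was 14% with the GC trend removed and 20.2% with a minimum of 1 read. The 3 lower members became 5 with a minimum of 1 read, which adds SPRY2 and SPRED1 (22.9% of all genes were lower there). They became 2 with a minimum of 100 reads (12.6% of all genes) or a fold of 2 (8.75%), each without DUSP1. The median over the members was between -1.25 (minimum of 100 reads, 3 genes) and -0.31, but 0.17 without CNKSR2. The other pathway genes with at least 10 reads were 2 classical and 8 atypical phosphatases, 3 Sprouty and SPRED genes and 6 scaffolds. The rest were 14 RAS-RAF-MEK-ERK cascade genes, 9 RAS GTPase-activating proteins, 10 p38 and JNK cascade genes and 6 genes induced by ERK. Of all these, 7 were higher and 11 lower, against 14.6% and 17.3% of all genes. With a pseudocount of 10, 4 were higher (11.5% of all genes). A minimum of 1 read gave 18 lower (22.9% of all). With a minimum of 100 reads, 4 were higher and 7 lower (9.94% and 12.6% of all). Removal of the GC trend, applied to these lists after seeing the data, gave 4 higher and 8 lower (14% and 15.9% of all). How many of the pathway genes met a minimum of 1 or of 100 reads is not given, so those counts are not shares. The share over all genes moved with the setting too, and nothing is read from these counts. Total counts moved the median of all genes by -0.080. By canonical transcript length, also chosen after seeing the data, DUSP2 was at 15.7 and 23.7 RPKM. Depth limits DUSP4, DUSP5, DUSP6, SPRY2 and SPRED1, which had 8 reads or fewer in each library.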
